A study of Mus musculus with 5 samples.

Results

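The Notch receptors Notch1, Notch2, Notch3 and Notch4, their ligands Jag1, Jag2, Dll1, Dll3 and Dll4, and the effector Rbpj were followed through 3 lists of ChIP-seq peaks, stretches of genome where DNA recovered with an antibody against a bound protein piled up. A peak was counted for one of these 10 genes when the deposited list gave it that gene's name, which held for 37 of 89451 peaks, of which 12 were ZHX1 peaks, 5 were control hnRNPA1 peaks and 20 were Zhx1-KO hnRNPA1 peaks. The 10 genes stand among 21000 curated protein-coding genes. Of all peaks, 91.0% carried the name of the gene with the nearest curated transcription start site (TSS), so a name says which start is nearest and not which gene a peak acts on.

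The cells were CP (cardiac progenitor) cells made from 46C mouse embryonic stem cells, an established line. ZHX1, which carries zinc fingers and homeoboxes, and hnRNPA1, an RNA-binding splicing regulator, were each precipitated from 46C-Ctrl cells, and hnRNPA1 also from Zhx1-KO cells, edited stem cells in which guide RNAs had been directed at both ends of Zhx1. The stem cells had been kept on feeder cells, and the sources used here do not say how many knockout clones were used. Each group had 1 library, so nothing below was tested between conditions, and the intervals given cover counting error only. The 2 inputs were not analysed here. The lists hold positions with no read counts, so the depth is unknown, the cell type cannot be checked against marker genes, and a missing peak does not show missing binding. The targeted gene, Zhx1, held 1 ZHX1 peak in its gene body and 0 hnRNPA1 peaks there in either line. By name it had 1 ZHX1, 0 control hnRNPA1 and 1 Zhx1-KO hnRNPA1 peak, the last outside its gene body. These counts do not check the knockout label. The lists differed in length, with 23244 ZHX1 peaks, 14662 control hnRNPA1 peaks and 51545 Zhx1-KO hnRNPA1 peaks.

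Notch receptors are cell-surface proteins that are switched on by Jagged and Delta-like ligands on a neighbouring cell. Ligand binding leads to cleavage of the receptor, whose intracellular domain enters the nucleus and joins the DNA-binding protein RBPJ to switch on targets such as the Hes and Hey genes. In the developing heart the pathway is known for its part in endocardium, valve and outflow tract formation.

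The ZHX1 peaks near the starts of Notch4, Jag2 and Dll3, a pair of hnRNPA1 peaks upstream of Dll4, exonic hnRNPA1 peaks in Notch3 and a ZHX1 peak in intron 1 of Rbpj are shown first, since the results below return to them. All are plus-strand GRCm38 sequence, written 5′ to 3′. Capitals mark TAGGG, which corresponds in DNA to the RNA motif of hnRNPA1, as well as CCAAT, bound by NF-Y, and TGGGAA, the core of the RBPJ site. Where a motif lies on the minus strand, its reverse complement is in capitals. In the Jag2 peak they mark CpG dinucleotides, and in the Zhx1-KO Notch3 peak they mark a G-quadruplex motif, in which 4 G runs, each 3 or longer, are spaced by 1 to 7 bases. Peaks over 300 bases are shown in part, and the Notch4 stretch ends just before the annotated start of the gene.
Notch4 ZHX1, chr17:34563968-34564267: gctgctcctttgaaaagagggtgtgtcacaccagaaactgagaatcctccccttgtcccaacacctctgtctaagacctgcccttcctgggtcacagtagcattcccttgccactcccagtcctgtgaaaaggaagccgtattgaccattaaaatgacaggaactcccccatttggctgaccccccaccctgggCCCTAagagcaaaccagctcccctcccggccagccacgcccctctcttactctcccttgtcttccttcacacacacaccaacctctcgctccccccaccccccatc
Jag2 ZHX1, chr12:112929968-112930195: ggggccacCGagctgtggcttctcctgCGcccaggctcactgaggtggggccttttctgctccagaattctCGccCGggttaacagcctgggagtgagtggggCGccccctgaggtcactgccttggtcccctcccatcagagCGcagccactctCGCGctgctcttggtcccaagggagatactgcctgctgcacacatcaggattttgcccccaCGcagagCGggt
Dll3 ZHX1, chr7:28302804-28303103: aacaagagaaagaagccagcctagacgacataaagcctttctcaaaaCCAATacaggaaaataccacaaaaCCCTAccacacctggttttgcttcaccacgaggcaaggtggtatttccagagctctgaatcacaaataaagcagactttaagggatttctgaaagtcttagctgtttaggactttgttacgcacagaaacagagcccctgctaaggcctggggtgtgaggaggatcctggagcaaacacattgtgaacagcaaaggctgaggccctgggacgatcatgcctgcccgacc
Rbpj ZHX1, chr5:53597654-53597922: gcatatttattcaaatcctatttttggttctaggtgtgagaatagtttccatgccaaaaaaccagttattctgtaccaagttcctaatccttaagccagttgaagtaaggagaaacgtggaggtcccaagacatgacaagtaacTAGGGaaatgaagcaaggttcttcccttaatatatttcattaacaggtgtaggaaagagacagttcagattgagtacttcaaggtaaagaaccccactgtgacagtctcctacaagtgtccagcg
Notch3 control hnRNPA1, chr17:32144614-32144913: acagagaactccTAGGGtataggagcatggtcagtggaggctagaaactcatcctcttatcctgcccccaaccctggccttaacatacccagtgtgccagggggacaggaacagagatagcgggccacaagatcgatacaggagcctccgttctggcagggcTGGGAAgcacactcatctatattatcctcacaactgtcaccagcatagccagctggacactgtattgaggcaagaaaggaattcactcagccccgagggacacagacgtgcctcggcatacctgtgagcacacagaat
Notch3 Zhx1-KO hnRNPA1, chr17:32158347-32158646: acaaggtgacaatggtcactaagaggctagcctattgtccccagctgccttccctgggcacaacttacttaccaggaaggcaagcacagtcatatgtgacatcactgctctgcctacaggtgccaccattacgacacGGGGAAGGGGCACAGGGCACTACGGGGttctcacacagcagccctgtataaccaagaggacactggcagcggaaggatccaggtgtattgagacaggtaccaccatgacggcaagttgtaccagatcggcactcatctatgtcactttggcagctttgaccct
Dll4 control hnRNPA1, chr2:119320976-119321214: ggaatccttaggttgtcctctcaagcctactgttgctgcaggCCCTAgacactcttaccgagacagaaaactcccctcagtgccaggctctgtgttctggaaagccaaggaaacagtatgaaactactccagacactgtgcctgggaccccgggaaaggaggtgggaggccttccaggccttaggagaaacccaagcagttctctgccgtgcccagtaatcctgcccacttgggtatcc
Dll4 Zhx1-KO hnRNPA1, chr2:119323307-119323530: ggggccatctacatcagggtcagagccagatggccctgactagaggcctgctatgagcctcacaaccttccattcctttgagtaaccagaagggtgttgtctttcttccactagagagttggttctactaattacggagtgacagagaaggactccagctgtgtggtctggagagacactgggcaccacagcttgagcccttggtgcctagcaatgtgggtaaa

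ZHX1 peaks named 8 of the 10 genes, control hnRNPA1 peaks named 4 and Zhx1-KO hnRNPA1 peaks named 8. Over all curated genes, 42.2% were named in the ZHX1 list, 32.6% in the control hnRNPA1 list and 60.1% in the Zhx1-KO list. With 10 genes the 95% Wilson intervals were 49.0 to 94.3% for ZHX1, 16.8 to 68.7% for control hnRNPA1 and 49.0 to 94.3% for Zhx1-KO. The ZHX1 interval lay above the share of all genes, while the hnRNPA1 intervals included theirs. The 10 genes were chosen with earlier results of these data known, and differ in how much genome lies nearest to their starts. No excess of ZHX1 naming is therefore read from these intervals. The names follow the nearest start, and by position the ZHX1 share was lower. A ZHX1 peak was centred in the gene body of 4 of the 10, against 27.9% of all protein-coding genes. Control hnRNPA1 peaks were centred in 4 gene bodies, against 20.3%, and Zhx1-KO hnRNPA1 peaks in 6, against 41.9%.

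**Figure D1:**
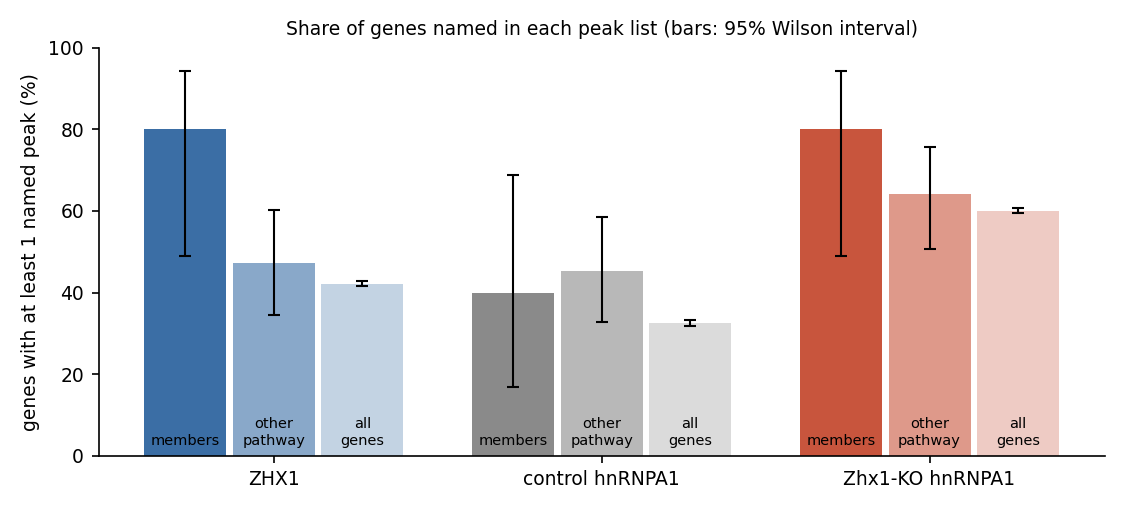
Percentage of genes (y axis) with at least 1 peak carrying their name, for the 10 genes, the other Notch pathway genes and all curated genes in each list (x axis); error bars are 95% Wilson intervals. The 10 genes stand at 80.0%, 40.0% and 80.0%, with wide intervals because there are 10 of them.

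Per length, the 10 genes did not stand apart. The stretches of genome nearest to their starts added up to 1246 kb and held 0.963 ZHX1 peaks per 100 kb (95% Poisson interval 0.498 to 1.68), against 0.878 over the genome. Control hnRNPA1 reached 0.401 peaks per 100 kb (0.13 to 0.936), against 0.554. Zhx1-KO hnRNPA1 reached 1.61 (0.98 to 2.48), against 1.95. All 3 intervals held the genome value. Jag1 (679 kb) and Rbpj (289 kb) made up most of the 1246 kb, so these totals mainly describe them. By gene, the ZHX1 density ran from 0 at Notch1 and Dll4 to 9.59 at Dll3, where 1 peak lay in 10.4 kb. Within the 543 kb of their gene bodies the densities were 1.11, 0.737 and 2.03 peaks per 100 kb, beside 0.988, 0.637 and 2.12 over all gene bodies.

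**Figure D2:**
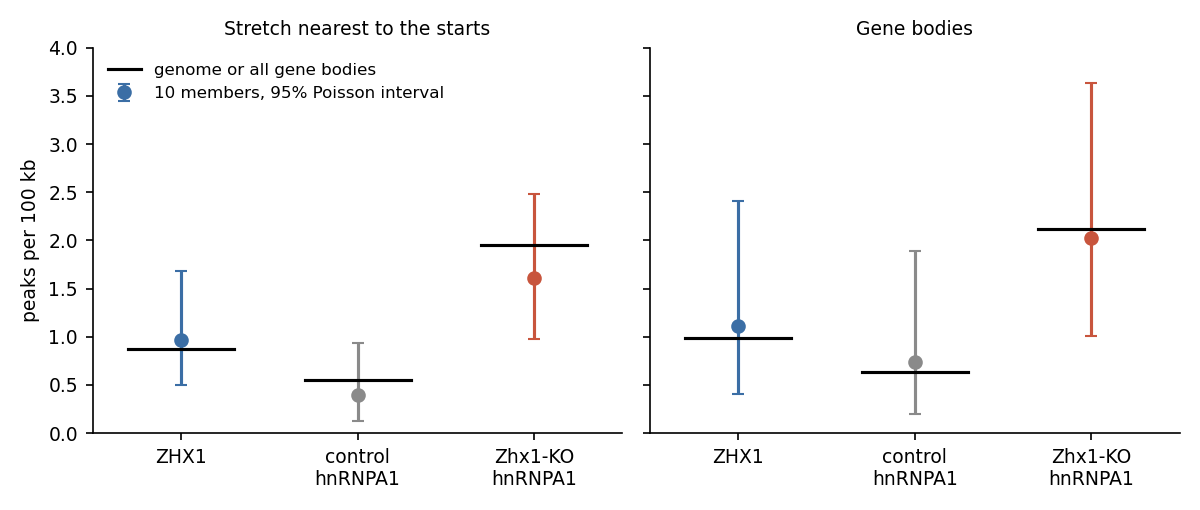
Peaks per 100 kb (y axis) in each list (x axis) for the stretches nearest to the starts of the 10 genes (left) and for their gene bodies (right), with points for the 10 genes, bars for 95% Poisson intervals and black lines for the genome or all gene bodies. Each black line lies within the interval of its list.

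Zhx1-KO cells had 20 hnRNPA1 peaks named for these genes and 46C-Ctrl cells had 5, a ratio of 4 (exact 95% interval 1.46 to 13.6). The full lists had a ratio of 3.52 (3.45 to 3.58), which lies inside that interval, so the members' ratio cannot be told apart from that of the lists. When each list was reduced to its 14662 widest peaks, both libraries had 5 peaks and the ratio was 1. Equal lengths also fix the ratio of the lists at 1. With peaks at least as wide as their list median, the members' ratio was 4 and that of the lists 3.51. By gene body the members' ratio was 2.75 (0.815 to 11.8). Of the 20 Zhx1-KO peaks, 10 had the smallest width in their list, 224 bases, a width that 28.0% of all Zhx1-KO peaks had. The smallest width of their lists was found in 1 of the 5 control hnRNPA1 peaks, against 33.7% of that list. It was found in 2 of the 12 ZHX1 peaks, against 36.4% of that list. The lists cannot separate a gain of binding from a longer list.

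**Figure D3:**
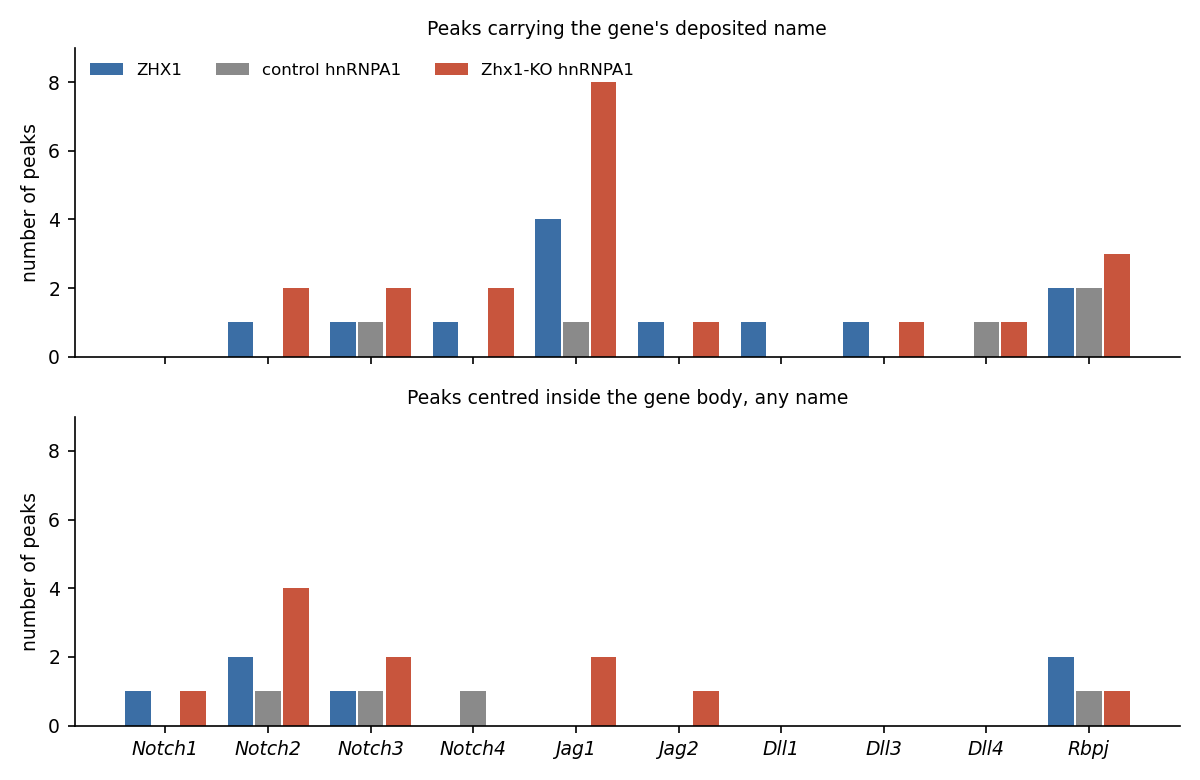
Number of peaks (y axis) per gene (x axis) in the 3 lists, by deposited name (top) and by centre in the gene body whatever the name (bottom). Jag1 leads by name, with 8 Zhx1-KO hnRNPA1 peaks and 4 ZHX1 peaks, while Notch2 leads by gene body.

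Among the receptors, Notch1, the receptor most widely used in development, had 0 peaks under its own name in all 3 lists. Its gene body (chromosome 2, 26457903 to 26516663, minus strand) nevertheless held a ZHX1 peak in intron 2 at 26485907 to 26486134 and a Zhx1-KO hnRNPA1 peak in intron 17 at 26473418 to 26473641. Both carried the name of Mir6996, a microRNA gene whose start is nearer. The ZHX1 peak lay 17.8 kb and the Zhx1-KO peak 30.3 kb downstream of the curated Notch1 start, and the nearest control hnRNPA1 peak lay outside the gene, 51.2 kb away from that start.

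Notch2, a receptor with roles in the vessel wall and outflow tract, had 1 ZHX1 peak, 0 control hnRNPA1 peaks and 2 Zhx1-KO hnRNPA1 peaks under its name. The ZHX1 peak was in intron 1 (chromosome 3, 98038318 to 98038577), 24.9 kb into the gene, and a Zhx1-KO peak at 98039897 to 98040239 followed 1.32 kb beyond its edge. The other Zhx1-KO peak was in intron 2 at 98066458 to 98066681. The other 4 peaks in the gene body were named Adam30, the next gene. They were a ZHX1 peak in intron 23 at 98132615 to 98132842, a control hnRNPA1 peak in intron 5 at 98088785 to 98089007, and Zhx1-KO hnRNPA1 peaks in intron 8 at 98100676 to 98101072 and over coding exon 18 at 98120749 to 98120985. By position Notch2 thus held 2 ZHX1, 1 control hnRNPA1 and 4 Zhx1-KO hnRNPA1 peaks over 137 kb, of which 4 were named for another gene.

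Notch3, the receptor of vascular smooth muscle, was named by 1 ZHX1, 1 control hnRNPA1 and 2 Zhx1-KO hnRNPA1 peaks, and was the only receptor that a control hnRNPA1 peak named. The ZHX1 peak was in intron 1, 2.33 kb from the start (chromosome 17, 32164391 to 32164722). The control hnRNPA1 peak covered coding exons 21 and 22 (32144614 to 32144922) and is printed above with its TAGGG and TGGGAA. The Zhx1-KO peak over coding exons 4 and 5 (32158308 to 32158755) was 448 bases wide, the widest of all 37, and held the one G-quadruplex motif among them. Notch3 is transcribed from the minus strand, so the G runs and the TAGGG printed above lie on the strand that does not match its RNA. The other Zhx1-KO peak was 6.02 kb upstream at 32172794 to 32173017, with 2 TAGGG. A further Zhx1-KO peak, over coding exon 33 at 32122004 to 32122316, was named Pdxk-ps.

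Notch4, the receptor of endothelium, had a ZHX1 peak across its start (chromosome 17, 34563945 to 34564337), centred 0.154 kb upstream of the curated TSS and 393 bases wide, wider than 88.2% of ZHX1 peaks. This was the ZHX1 peak nearest to a curated start among the 10 genes, and it held 2 TAGGG, of which 1 is in the stretch printed above. Control hnRNPA1 had 0 peaks under the name Notch4, but a peak over exon 27 at 34586204 to 34586512, named Gpsm3, lay 0.083 kb from the start of an internal Notch4 transcript. The 2 Zhx1-KO hnRNPA1 peaks were upstream, at 34559288 to 34559548 (4.88 kb) and in the pseudogene Btnl7-ps at 34541375 to 34541598 (22.8 kb).

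Of the ligands, Jag1, which is needed for heart outflow tract and valve development, carried the most names, with 4 ZHX1, 1 control hnRNPA1 and 8 Zhx1-KO hnRNPA1 peaks. Without the curated genes never used as a name, its start is the nearest one for 679 kb of chromosome 2. That is as long as or longer than the stretches of 98.0% of genes. With all curated genes the Jag1 stretch is 489 kb, over which its densities would be higher. Per 100 kb of the 679 kb it had 0.589, 0.147 and 1.2 peaks, beside 0.878, 0.554 and 1.95 over the genome. Counts of 4, 1 and 8 are too small to tell these apart. Of the 13 peaks, 2 lay in the gene, both from Zhx1-KO hnRNPA1. One was over coding exon 6 at 137096229 to 137096660, 20.1 kb from the start, and the other in intron 4 at 137101131 to 137101354. Each of these held a TGGGAA. Beyond the 3′ end, 2 ZHX1 peaks (137045881 to 137046173 and 137067744 to 137067971) and 1 Zhx1-KO peak (137054799 to 137055179) lay in the neighbouring gene Slx4ip. The other 8 peaks were 126 to 565 kb upstream.

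The far upstream Jag1 peaks included the only 3 of the 37 whose sequence occurs more than once in the genome. The ZHX1 peak at 137395124 to 137395433 had a median copy number of 216 for its 32-base words, the ZHX1 peak at 137680059 to 137680333 had 11512, and the Zhx1-KO peak at 137403400 to 137403693 had 6414. The ZHX1 peak at 137680059 and a Zhx1-KO peak at 137681131 to 137681354 had centres 1.05 kb apart, the closest that peaks of different lists came at these genes, and both lay in the non-coding gene Gm14064. Multi-copy sequence made up 25.2%, 24.4% and 31.4% of the 3 full lists, beside 2 of 12, 0 of 5 and 1 of 20 here. The control hnRNPA1 peak, 518 kb upstream at 137634658 to 137634996, held 3 CCAAT. The counts of 4, 1 and 8 were shared exactly by 7 other genes. Of these Gpm6a, with a stretch of 678 kb, was closest in length, followed by Sh3gl2 (585 kb), Tprg (312 kb), St8sia3 (284 kb) and Cdc5l (276 kb).

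Jag2, the other Jagged ligand, had 1 ZHX1 peak, 0 control hnRNPA1 peaks and 1 Zhx1-KO hnRNPA1 peak. The ZHX1 peak (chromosome 12, 112929968 to 112930195) was 0.587 kb upstream of the curated start. With 10 CpG in 228 bases and 64.5% GC, it had the highest GC content of the 37. The Zhx1-KO peak was in intron 2 at 112926580 to 112926803, 2.80 kb downstream of the start, with 11 CpG.

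Dll1, a Delta-like ligand of early mesoderm and somites, had 1 ZHX1 peak and 0 hnRNPA1 peaks in either line. It lay past the 3′ end of the gene (chromosome 17, 15365164 to 15365439), 10.5 kb downstream of the nearest curated start, and held a TGGGAA. Dll3, a divergent ligand best known from somite formation, had 1 ZHX1, 0 control hnRNPA1 and 1 Zhx1-KO hnRNPA1 peak. Its ZHX1 peak (chromosome 7, 28302804 to 28303230) was centred 1.23 kb upstream of the curated start and was 427 bases wide, wider than 92.3% of ZHX1 peaks. The Zhx1-KO peak lay 4.11 kb upstream, over the coding sequence and UTR of the neighbouring gene Timm50 at 28305769 to 28306018. Dll4, the endothelial ligand, was the only member that control hnRNPA1 named and ZHX1 did not. Its control hnRNPA1 peak was 4.69 kb upstream (chromosome 2, 119320976 to 119321214) and its Zhx1-KO peak 2.37 kb upstream (119323307 to 119323530), so that hnRNPA1 had a peak near Dll4 in both lines, at positions whose centres were 2.32 kb apart. The control peak overlapped an exon of the annotated gene Gm14207, and the Zhx1-KO peak was centred in that gene. The Zhx1-KO peak had the smallest width of its list, 224 bases. The sequences above show 1 TAGGG in the control peak and 0 in the Zhx1-KO peak.

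Rbpj, the DNA-binding effector of the pathway, had 2 ZHX1, 2 control hnRNPA1 and 3 Zhx1-KO hnRNPA1 peaks. It was named in all 3 lists, as were Notch3 and Jag1. Its gene body spans 191 kb of chromosome 5 because of transcripts that begin far upstream of the curated starts. The ZHX1 peak at 53597654 to 53597922, printed above with its TAGGG on the strand of the gene, was in intron 1, 7.3 kb from a curated start. The other ZHX1 peak, at 53480123 to 53480421, lay 75.5 kb upstream of the curated starts and inside the longer transcripts. Control hnRNPA1 peaks lay 104 kb upstream (53451799 to 53452021) and 64.1 kb upstream (53491530 to 53491771), the latter inside the longer transcripts. Zhx1-KO hnRNPA1 peaks lay 119 kb upstream (53436919 to 53437230), 91.1 kb upstream (53464565 to 53464876) and 44.6 kb downstream in intron 2 (53634984 to 53635207). The peak at 53464565 was 1.43 kb from the start of a longer transcript.

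**Figure D4:**
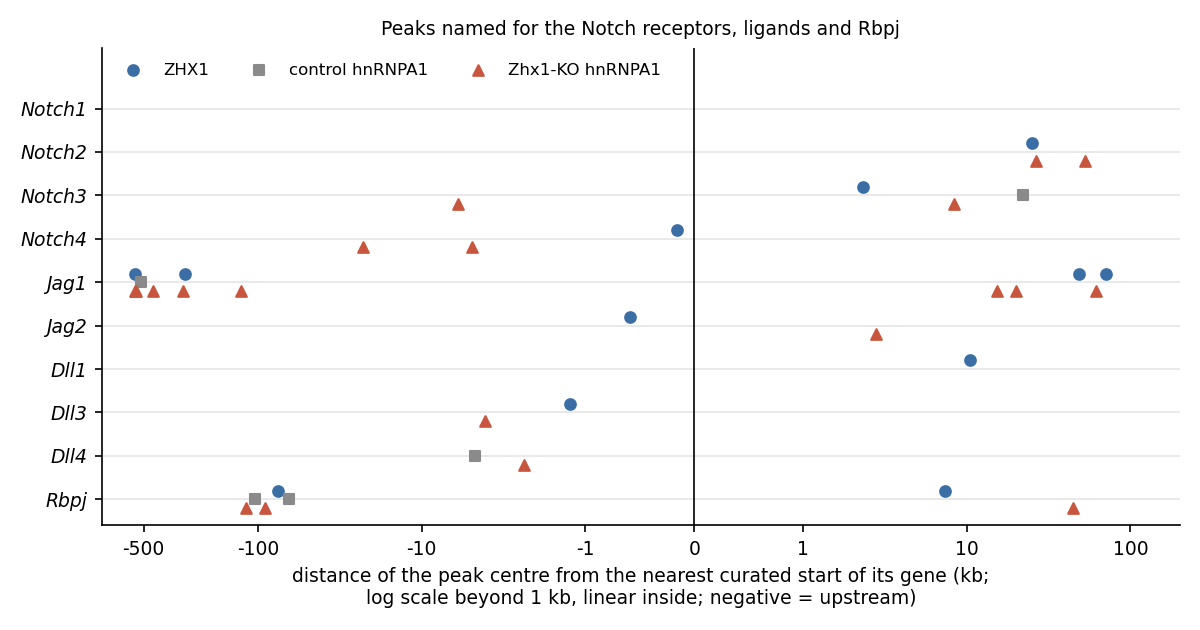
Distance of each of the 37 peaks from the nearest curated start of its gene (x axis, kb, logarithmic beyond 1 kb, negative upstream), by gene (y axis) and list (symbols). The ZHX1 peaks at Notch4 and Jag2 lie within 1 kb of the start, and the Jag1 peaks reach 565 kb upstream.

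Peaks within 2 kb of any annotated TSS of their gene were found for Notch4, Jag2 and Dll3 with ZHX1, for Notch4 with control hnRNPA1 and for Jag2 and Rbpj with Zhx1-KO hnRNPA1. That made 3, 1 and 2 of the 10, against 11.6%, 6.43% and 20.2% of all protein-coding genes. These hnRNPA1 peaks lay farther from the curated starts, 22.1 kb at Notch4, 2.8 kb at Jag2 and 91.1 kb at Rbpj. The Notch4 one was named Gpsm3. The median distance of the named peaks from a curated start was 17.7 kb for ZHX1, 64.1 kb for control hnRNPA1 and 35.5 kb for Zhx1-KO hnRNPA1, beside 37.4, 36.2 and 41.5 kb over the full lists.

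None of the 37 peaks overlapped a peak of another list by 1 bp or more. The shares over the full lists were 6.5% of ZHX1 peaks, 7.73% of control hnRNPA1 peaks and 3.02% of Zhx1-KO peaks, or 0.78, 0.386 and 0.604 peaks when applied to the 12, 5 and 20 peaks here, so 0 is near the background. Centres within 5 kb were seen for 5 of the 12 ZHX1 peaks and a Zhx1-KO hnRNPA1 peak, at Notch2, Notch4, Jag1, Jag2 and Dll3. This is 41.7%, against 26.7% of the ZHX1 list. No ZHX1 peak came within 5 kb of a control hnRNPA1 peak (0 of 12, against 11% of the list), and the closest were 11.4 kb apart, at Rbpj.

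**Figure D5:**
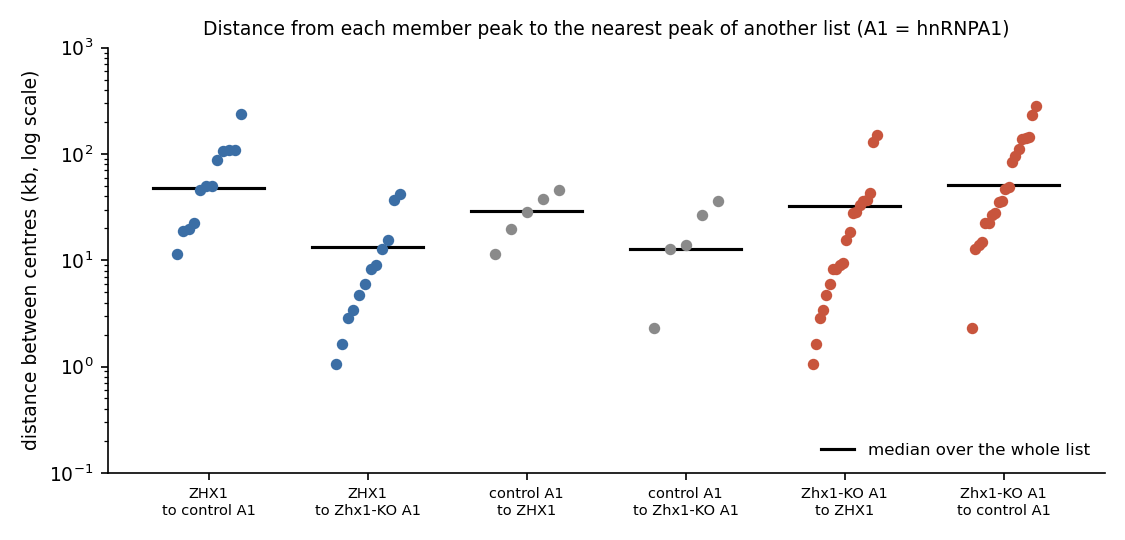
Distance between centres (y axis, kb, log scale) from each of the named peaks to the nearest peak of another list, for each ordered pair of lists (x axis); black lines are medians over the whole first list. The nearest ZHX1 and control hnRNPA1 centres are 11.4 kb apart and the nearest ZHX1 and Zhx1-KO hnRNPA1 centres 1.05 kb apart.

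TAGGG was in 3 of 12 ZHX1 peaks, 3 of 5 control hnRNPA1 peaks and 5 of 20 Zhx1-KO peaks, beside 34.5%, 35.0% and 35.3% of the full lists and 36.3% of RefSeq promoters. CCAAT was in 3, 2 and 4 peaks, beside 36.4%, 36.3% and 38.2%, and 37.4% of promoters. TGGGAA was in 3, 1 and 3, beside 24.6%, 25.3% and 25.4%, and 25.4% of promoters. The G-quadruplex motif was in 0, 0 and 1, beside 4.78%, 3.9% and 5.53%, and 18.7% of promoters. Peaks differ in width and promoters are of one length, so the shares are not matched for length. The Wilson interval of each count held the share of its list.

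In the wider pathway, 53 other genes were followed by role. ZHX1 named 25 of them (47.2%), control hnRNPA1 24 (45.3%) and Zhx1-KO hnRNPA1 34 (64.2%), beside the shares of all genes of 42.2%, 32.6% and 60.1%. Peaks within 2 kb of a TSS were found for 15, 7 and 13 of the 53, beside 11.6%, 6.43% and 20.2% of all protein-coding genes. With 53 genes and no test, nothing is read from these counts. Peaks near a TSS were counted whatever name they carried, and those reported below under another gene's name are marked. Of the 6 glycosyltransferase genes, whose products modify the receptors, 3, 4 and 2 were named in the ZHX1, control hnRNPA1 and Zhx1-KO lists. ZHX1 peaks lay near the starts of Pofut1 (0.116 kb, named Plagl2) and Poglut1 (0.885 kb), and a Zhx1-KO hnRNPA1 peak near Mfng (0.242 kb). Of the 4 genes for ligand endocytosis, 1, 2 and 2 were named in those lists. Control hnRNPA1 peaks lay 0.165 kb from a Mib1 start (named Mir1a-2) and 0.932 kb from a Neurl1a start. A Zhx1-KO hnRNPA1 peak lay 1.4 kb upstream of a Neurl1a start. A ZHX1 peak, named Mmp23, lay 1.72 kb from a Mib2 start. Of the 8 genes of the proteases that cut the receptor, 3, 1 and 5 were named. At Adam17 a ZHX1 peak (named Iah1) lay 0.483 kb and a Zhx1-KO hnRNPA1 peak 1.67 kb upstream of a start. At Psen2 Zhx1-KO hnRNPA1 peaks lay 0.245 and 1.39 kb from starts. The Psen2 peak at 1.39 kb was multi-copy, with a copy number of 7.

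Of the coactivators that work with RBPJ, all 7 were named in the Zhx1-KO list, 4 in the ZHX1 list and 4 in the control list. Over all genes, the shares in those lists were 60.1%, 42.2% and 32.6%, and no difference was tested. ZHX1 peaks lay 0.129 kb from an Ep300 start and 0.259 kb from a Crebbp start, the genes of the acetyltransferases p300 and CBP. Zhx1-KO hnRNPA1 also had a peak 0.736 kb from a Crebbp start. Both Crebbp peaks were named Trap1. At Maml3, control hnRNPA1 had a peak 0.859 kb from a start and Zhx1-KO hnRNPA1 one 1.57 kb upstream of a start. Both Maml3 peaks were named Mgst2. Of the 8 corepressors, counting the RBPJ-like factor Rbpjl, 4 were named in the ZHX1 list, 5 in the control hnRNPA1 list and 7 in the Zhx1-KO list, beside 42.2%, 32.6% and 60.1% of all genes. A Zhx1-KO hnRNPA1 peak lay 1.25 kb from a Spen start, and others lay 0.075, 0.333 and 1.34 kb from Ncor1 starts. The Ncor1 peaks at 0.075 and 1.34 kb were named Ttc19. The Ncor1 peak at 1.34 kb was multi-copy, with a copy number of 3. At Ctbp2 (chromosome 7) the control hnRNPA1 peak at 133070035 to 133070340 overlapped the Zhx1-KO peak at 133069916 to 133070267. Both of these sequences occur once in the genome.

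Of the 8 turnover factors and inhibitors, 4, 2 and 6 were named in the ZHX1, control hnRNPA1 and Zhx1-KO lists. Over all genes, the shares in those lists were 42.2%, 32.6% and 60.1%, which also stand beside the roles that follow. Itch had a ZHX1 peak 0.214 kb from a start, and Nrarp, a feedback inhibitor, had a ZHX1 peak (0.947 kb) and a control hnRNPA1 peak (0.344 kb upstream) near its start. A Zhx1-KO peak lay 0.538 kb from a Dtx1 start. Of the 3 non-canonical ligands, 2 were named in each list. Dlk1 and Dlk2 each had a ZHX1 peak near a start (0.021 and 0.238 kb). Of the 9 Hes and Hey genes, grouped here as targets by family, 4 were named in the ZHX1 list, 4 in the control hnRNPA1 list and 3 in the Zhx1-KO list. Hes1 had a Zhx1-KO hnRNPA1 peak 1.08 kb upstream of a start, Hes5 a ZHX1 peak 0.752 kb upstream and Heyl 2 control hnRNPA1 peaks at 0.936 and 0.661 kb upstream.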

How the data were processed

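Sequencing and peak calling were done by the authors, who deposited 1 peak list per ChIP library. Reads were trimmed with cutadapt 1.18, dropped when under 50 bases and mapped with Bowtie2 2.3.5.1 to GRCm38 (GENCODE M19), and unmapped, non-unique and duplicate reads were removed. In addition, deepTools 3.3.0 and BWA 0.7.12-r1039 appear in the submitters' notes on processing. Which peak caller and threshold were used, and whether the inputs entered, is not given in the sources used. The deposited values are positions and a gene name per peak, without a score. Groups were taken from the sample titles.

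The 10 genes and the pathway list were chosen with earlier results of these data known. From the drafted pathway list Kyat1 was left out, since it is no Notch gene, and Eogt was moved to the glycosyltransferases. Gene bodies and TSS came from GENCODE M21 (21951 protein-coding genes) and names from curated RefSeq transcripts. Peak names equalled the gene of the nearest curated start for 91.0% of peaks, for 96.5% after leaving out 1239 curated genes never used as a name, and for all 37 member peaks. A stretch was the genome nearest to a gene's start, without those 1239 genes. Overlap meant at least 1 bp. Copy number was the median, over 32-base words of a peak, of occurrences in GRCm38, and 2 or more was called multi-copy. Intervals were 95% (exact Poisson for counts, Wilson for shares, exact binomial for ratios). Motifs were searched on both strands, overlapping matches counted, in peaks and in 32544 RefSeq promoters (GRCm38.p6). Named genes were all 10 members, the first 3 of each role in list order with a peak within 2 kb of a TSS, any gene with overlapping lists, and the 5 genes whose peak counts were most like those of Jag1. Not every gene that this rule picked is reported here. Alternatives were gene bodies, wider peaks, lists of equal length, single-copy peaks, other overlap and TSS windows, the centre of the peak for motifs and, added after seeing the data, stretches with all curated genes. The steps were run in Python 3.11.15 with scipy 1.17.1, pandas 2.3.3, numpy 2.4.6, matplotlib 3.10.9 and numba 0.67.0, and were tested on simulated data.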

Additional observations from a re-analysis of the deposited data

How the results depend on the processing

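Of 63 alternative values for 28 results, 47 were classed as the same and 16 as moved. A value classed as moved could still lie inside the counting interval. An example is the change from 5 to 2 control hnRNPA1 peaks (interval 1.62 to 11.7). Counting by gene body changed ZHX1 from 12 to 6 peaks and from 8 to 4 genes, and Zhx1-KO hnRNPA1 from 20 to 11 peaks. Keeping peaks at least as wide as the list median left 2 control hnRNPA1 peaks at 2 genes and 8 Zhx1-KO peaks at 4 genes. With lists of equal length, made from the widest peaks, Zhx1-KO hnRNPA1 had 5 peaks at 3 genes, 0 genes with a peak within 2 kb of a TSS and a ratio to 46C-Ctrl of 1. Equal lengths fix the ratio of the full lists at 1 as well. Within 5 kb of a TSS the counts were 5 genes for ZHX1, 2 for control hnRNPA1 and 6 for Zhx1-KO, and within 1 kb Zhx1-KO had 0. In the central 200 bases CCAAT was in 8.33% of ZHX1 peaks. The absence of overlap held under every overlap rule tried, centres within 1 kb included. Leaving out Jag1 gave a Zhx1-KO to 46C-Ctrl ratio of 3, and stretches with all curated genes, chosen after seeing the data, gave 1.19, 0.497 and 1.99 peaks per 100 kb. Depth is unknown for all 3 lists and each group had 1 library, so no value here has a replicate check.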
